A study of Anas platyrhynchos with 6 samples.

Results

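The let-7 and miR-98 family of miRNAs was examined in small RNA libraries from the duodenum of prelaying Nonghu No. 2 ducks. Its members were the miRNA names that, without their species prefix, began with let-7 or were miR-98, with any letter, arm or copy. This rule found 70 of the 1568 names in the deposited tables, all of them let-7 names, and 0 names of miR-98. The ducks were 90 days old when they were selected and were all kept on the floor before a trial of 10 days. The traditional breeding (TB) group then stayed on the ground and the cage rearing (CR) group was moved to cages. The study describes the amount of food given and the surroundings as alike, but reports that CR ducks ate less. It also reports a mean loss of weight in CR ducks and a mean gain in TB ducks. No genetic change or drug distinguished the groups. There were 3 libraries of each group (TB replicates 1 to 3 and CR replicates 1 to 3), and the comparison of CR with TB asks how the miRNAs of the gut differed after the change of housing. The sources used here do not state which ducks the sequenced samples came from, so p-values measure only the spread between these samples.

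The let-7 miRNAs were found in the nematode Caenorhabditis elegans as timers of larval development and are among the most conserved miRNAs of animals. Members share a seed, the stretch near the 5′ end that pairs with target mRNAs, and the letters (let-7a, let-7b and so on) mark mature forms that differ by a few bases outside it. Their precursors are bound by LIN28, a protein of stem cells and embryos that blocks their maturation, so that mature let-7 rises as cells differentiate. Known targets in mammals include RAS and MYC family genes and HMGA2. In the mouse gut LIN28 and let-7 act against each other in the growth of the epithelium. miR-98 is the mammalian member that carries another number.

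Summed over all names, CR replicate 2 held 1500905 reads and TB replicate 1 held 5708735 reads. The other 4 libraries held 9014316 (TB replicate 3) to 11395209 reads (CR replicate 1). Values are RPM, reads per 1000000 of that sum, and are listed in the order of replicates 1 to 3 of a group. In these units 1 read was worth 0.0878 to 0.666 RPM. TB replicate 1 and CR replicate 2, the libraries with the fewest reads, stood apart from the other 4 libraries. The part of read depth in this division was not tested. Over the 631 tested names outside the family, their log2(RPM + 1) values had a Pearson correlation of 0.966 with each other and of 0.721 to 0.809 with the other 4, which had 0.981 to 0.991 among themselves. These correlations are across names and describe the libraries only. The libraries carry the label of intestinal epithelial cells, whereas a piece of duodenum was sampled. The 7 epithelial marker miRNAs summed to 36505 and 47880 RPM in CR replicate 2 and TB replicate 1 and to 126618 to 186540 RPM in the others. This sum was carried mostly by miR-215 (12535 and 11200 RPM against 91467 to 143915 RPM). miR-194 (11480 and 20685 RPM against 25032 to 34853 RPM) and miR-192 (275 and 136 RPM against 495 to 843 RPM) were lower in both libraries too. In contrast, miR-200b (6615 and 8991 RPM against 1366 to 3454 RPM) and miR-429 were higher in both libraries, and miR-200a and miR-141 were mixed. The 3 pancreas markers (26.0 and 53.6 RPM against 1.11 to 4.83 RPM) and the enteroendocrine markers miR-375 and miR-7 (7599 and 4579 RPM against 1445 to 2718 RPM) summed higher there. The enteroendocrine sum followed miR-375, whereas miR-7 was lower in both libraries (289 and 862 RPM against 1212 to 2428 RPM). The hepatocyte marker miR-122 had 328 RPM in CR replicate 2, 7.36 RPM in TB replicate 1 and 1.55 to 5.10 RPM in the others. The smooth muscle markers miR-143 and miR-145 also summed lower there (91168 and 118822 RPM against 150969 to 198015 RPM). This sum followed miR-143, whereas miR-145 was higher in both libraries (941 and 1490 RPM against 559 to 867 RPM). Leukocyte markers summed lower in CR replicate 2 and TB replicate 1 (87.9 and 31.9 RPM against 237 to 321 RPM). miR-126 of endothelium was lower too (639 and 469 RPM against 736 to 1467 RPM). The striated muscle sum was higher there by miR-133a, with miR-1 lower. Erythroid and neuron sums were mixed. After the trimmed-mean scaling described below, the enteroendocrine and hepatocyte markers were mixed. The striated muscle, erythroid and neuron sums were then lower in both. The part of these shifts in the let-7 values was not tested, and in bulk tissue fewer cells of a type and less RNA per cell cannot be told apart.

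The 70 let-7 names carried 34 species prefixes, and 0 carried the duck prefix apl. A prefix says under which miRBase entry a read was counted, not where the RNA came from. Of the names, 66 had at least 1 read and 4 were listed at 0 in all 6 libraries. The 66 names held only 37 distinct sets of reads. For example, hsa-let-7b-5p (human) and oar-let-7b (sheep) had the same reads in every library, as did gga-let-7i (chicken), mmu-let-7i-5p (mouse) and ssc-let-7i-5p (pig). Each distinct set is described once here.

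Further names were not identical but moved almost as one. efu-let-7f (bat) and ggo-let-7f (gorilla) differed by at most 1 read in any library and had 0.896 to 0.947 times the level of hsa-let-7f-5p. ola-let-7e (medaka) differed from gga-let-7k-5p by at most 2 reads. The level of cel-let-7-5p (nematode) was between 1.09 and 1.18 times that of bfl-let-7b (lancelet). Their levels are uncertain, since the counting could have put the same read under several such names. Reads of the family may also stand under names outside it. bta-miR-3596 (cattle) differed from hsa-let-7b-5p by 3 reads in 1 library, and the reads of rno-miR-3596d (rat) differed from those of efu-let-7f by 626 over all 6 libraries together.

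let-7f was the most abundant letter by its mean over all libraries. hsa-let-7f-5p had 3179, 5077 and 5824 RPM across TB against 5596, 3371 and 4266 RPM across CR. TB replicate 1 and CR replicate 2 were the lowest libraries for this letter. cel-let-7-5p, named without a letter and of the same mature sequence as vertebrate let-7a, had 6478, 1521 and 1418 RPM across TB against 1844, 6531 and 1160 RPM across CR. The same libraries were here the highest by far. gga-let-7i had 5464, 1412 and 1155 RPM across TB against 1554, 6934 and 1096 RPM across CR. bfl-let-7b had 5670, 1307 and 1219 RPM across TB against 1563, 5994 and 1011 RPM across CR, close to cel-let-7-5p throughout. gga-let-7g-5p had 3199, 1110 and 1009 RPM across TB against 1440, 3539 and 838 RPM across CR.

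The human name of let-7b showed a wider range than any of these as a fold, the highest library having 17.4 times the level of the lowest, against 6.33 times or less. hsa-let-7b-5p had 3351, 289 and 255 RPM across TB against 228, 3290 and 193 RPM across CR. The groups overlapped fully, and the other 4 libraries lay within 193 to 289 RPM. It did not follow bfl-let-7b in the size of this range, although both names carry the letter b. hsa-let-7c-5p had 460, 102 and 87.4 RPM across TB against 95.2, 535 and 77.0 RPM across CR. gga-let-7l-5p, a letter known from chicken, had 414, 46.4 and 54.2 RPM across TB against 25.9, 419 and 25.7 RPM across CR. dme-let-7-5p, the name of the fruit fly form, had 1016, 225 and 199.8 RPM across TB against 229.8, 1468 and 189.7 RPM across CR. In each of these names TB replicate 1 and CR replicate 2 were above the other 4 libraries. gga-let-7k-5p, another letter of chicken, went with let-7f instead, at 152, 247 and 283 RPM across TB against 288, 227.2 and 227.5 RPM across CR. Only TB replicate 1 stood clearly lower, since CR replicate 2 and CR replicate 3 were nearly equal.

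**Figure D1:**
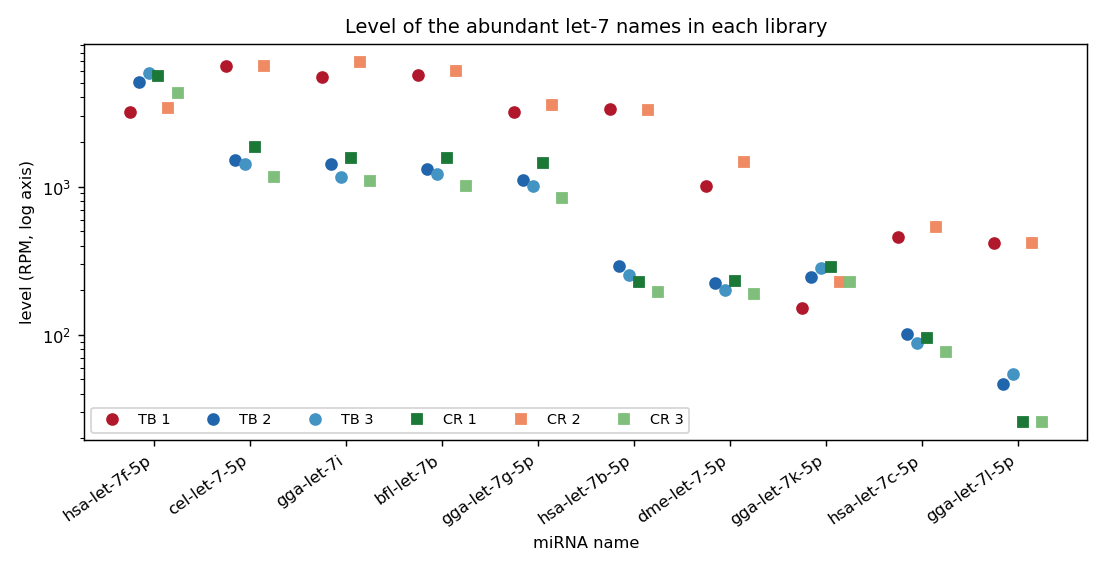
Level in RPM (log axis) of 10 let-7 names in each of the 6 libraries, with circles for TB and squares for CR. TB replicate 1 (dark red) and CR replicate 2 (orange) are the highest points of 8 names, such as hsa-let-7b-5p at 3351 and 3290 RPM, and the lowest points of hsa-let-7f-5p at 3179 and 3371 RPM.

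The order of the letters was set from the most abundant 5p name of each letter. It ran let-7f, let-7 without a letter, let-7i, let-7b, let-7g, let-7k, let-7e, let-7c, let-7l, let-7d, let-7a and let-7j, by mean RPM over the 6 libraries. The place of let-7b and let-7e turned on the name that stands for the letter. With hsa-let-7b-5p (mean 1268 RPM) in place of bfl-let-7b, let-7b came after let-7g (mean 1856 RPM). With hsa-let-7e-5p (mean 2.75 RPM) in place of ola-let-7e, let-7e fell among the scarce letters. RPM counts reads without a correction for length, and the capture of different miRNAs in a library can differ, so this is an order of reads. Several neighbours did not differ beyond their spread. hsa-let-7f-5p was above cel-let-7-5p in 4 of 6 libraries, with a mean log2 ratio of 0.88 ± 1.46 (SD, n = 6). gga-let-7i was above bfl-let-7b in 3 of 6 libraries, at 0.050 ± 0.11. gga-let-7k-5p and ola-let-7e could not be separated, and ola-let-7e was above hsa-let-7c-5p in 4 libraries (0.54 ± 1.52). cel-let-7-5p was above gga-let-7i in 5 libraries, at 0.15 ± 0.14. In contrast, bfl-let-7b was above gga-let-7g-5p in 6 of 6 libraries (0.41 ± 0.30), gga-let-7g-5p above gga-let-7k-5p in 6 (2.76 ± 1.12) and hsa-let-7c-5p above gga-let-7l-5p in 6 (0.95 ± 0.67). A large step separated gga-let-7l-5p (mean 164 RPM) from hsa-let-7d-5p (mean 6.16 RPM), at a log2 ratio of RPM + 1 of 4.15 ± 0.70. The names that carry the letter a were low, with tch-let-7a-5p (tree shrew) at 1.23 to 3.95 RPM, while the nematode name cel-let-7-5p stands for the let-7a form here.

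The rank of let-7f depended on the library. It was the highest letter in TB replicates 2 and 3 and CR replicates 1 and 3 and only the fifth in TB replicate 1 and CR replicate 2. The fifth place holds with bfl-let-7b standing for let-7b. hsa-let-7b-5p lay below hsa-let-7f-5p in CR replicate 2 (3290 against 3371 RPM), so with that name let-7f would rank higher there. The dependence on the library can be stated without the rest of the library, as a ratio to hsa-let-7f-5p. cel-let-7-5p had 2.04 and 1.94 times the level of hsa-let-7f-5p in TB replicate 1 and CR replicate 2 and 0.244 to 0.329 times in the other 4. gga-let-7i had 1.72 and 2.06 times against 0.198 to 0.278 times. For hsa-let-7b-5p the ratios were 1.05 and 0.976 against 0.0407 to 0.0570. gga-let-7l-5p had 0.130 and 0.124 times the level of hsa-let-7f-5p against 0.0046 to 0.0093 times. gga-let-7k-5p was nearly fixed to let-7f, at 0.0479 and 0.0674 times against 0.0486 to 0.0533 times.

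**Figure D2:**
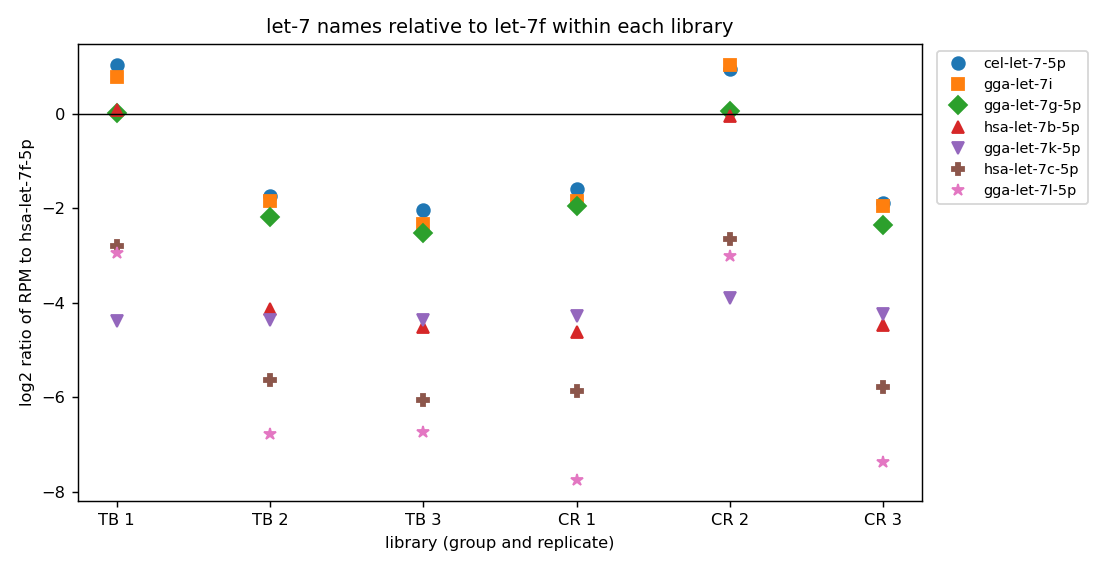
Log2 ratio of the RPM of 7 let-7 names to that of hsa-let-7f-5p in each library, with 0 marking equal levels. In TB replicate 1 and CR replicate 2 cel-let-7-5p and gga-let-7i lie above 0 and hsa-let-7b-5p is close to 0 (0.076 and -0.035), whereas in the other 4 libraries hsa-let-7b-5p lies between -4.62 and -4.13 and gga-let-7k-5p keeps its place near -4.

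Most miRNAs followed the same division of the libraries, so it was not particular to let-7. Of all 662 tested names, 57.3% were higher in both TB replicate 1 and CR replicate 2 than in each other library and 21.8% were lower. Of the 31 tested let-7 names, 20 were higher and 5 were lower. Of their 19 distinct sets of reads, 10 were higher and 5 were lower, so the share depends on this unit. These shares move with the scaling. After trimmed-mean scaling of the RPM values (TMM, factors 1.70 and 2.96 in TB replicate 1 and CR replicate 2 and 0.531 to 0.773 in the others), 36.9% of all names were higher and 43.8% lower. Of the let-7 names 15 were then higher and 9 lower, which made 7 and 7 of the sets. On both scales hsa-let-7f-5p was lower in both libraries, and gga-let-7i, hsa-let-7b-5p, dme-let-7-5p, hsa-let-7c-5p and gga-let-7l-5p were higher. gga-let-7g-5p and cel-let-7-5p were higher in RPM but mixed after TMM scaling, where gga-let-7g-5p had 1885 in TB replicate 1 and 1195 in CR replicate 2 against 1461 to 1864 in the others.

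The summed level of the family did not separate the groups. Over all 37 distinct sets of reads it was 35376, 20902 and 22501 RPM across TB against 23210, 39058 and 17183 RPM across CR, with means of 26260 ± 7935 RPM (SD, n = 3) in TB and 26484 ± 11299 RPM in CR. This sum counts shared reads several times. A sum of 8 names, without those that were identical or closest to another in their values (hsa-let-7f-5p, cel-let-7-5p, gga-let-7i, gga-let-7g-5p, hsa-let-7b-5p, gga-let-7k-5p, hsa-let-7c-5p and gga-let-7l-5p, chosen after their values were seen and not tested for shared reads) averaged 14196 ± 7364 RPM over TB and 14600 ± 9015 RPM over CR. The log2 ratio of CR to TB was 0.012 for the first sum and 0.040 for the second. TB replicate 1 and CR replicate 2 were highest for both sums. After TMM scaling CR replicate 2 was the lowest library for both, at 13190 and 8390.

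The shares of the letters within the 8 names did not separate the groups either. let-7f took 14.0%, 51.8% and 57.7% in TB and 50.5%, 13.6% and 54.1% in CR. let-7 without a letter took 28.5%, 15.5% and 14.1% in TB and 16.7%, 26.3% and 14.7% in CR. let-7i took 24.1%, 14.4% and 11.5% in TB and 14.0%, 27.9% and 13.9% in CR. let-7b took 14.8%, 2.95% and 2.53% in TB and 2.06%, 13.2% and 2.45% in CR. let-7g varied least among these, from 10.0% to 14.2%. In the wider set of all distinct 5p names, 7 groups of names (6 letters and the names without a letter) had at least 1% on average. Their two-sided exact permutation p-values for CR against TB were 0.6 to 1.0, where 3 libraries against 3 cannot go below 0.1.

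**Figure D3:**
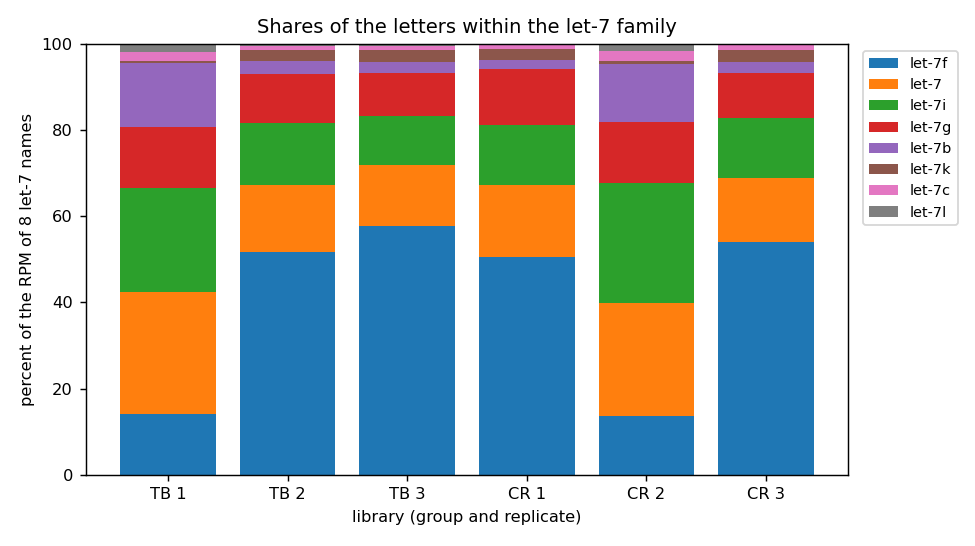
Percent of the summed RPM of 8 let-7 names (each letter by its own name, let-7 being cel-let-7-5p) in each library. let-7f fills 50.5% to 57.7% of the bar in 4 libraries and 14.0% and 13.6% in TB replicate 1 and CR replicate 2.

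No let-7 name passed the test between CR and TB. Of the 70 names, 31 (19 distinct sets of reads) had at least 10 reads in at least 3 libraries and were tested. In limma, 0 of the 31 names had an adjusted p under 0.05 and 0 had an unadjusted p under 0.05. For all 662 tested names the share was 0.0% for both thresholds. An unadjusted threshold of 0.05 would pass about that share of names without any difference between groups. The test thus called fewer names than that, and the lack of calls does not show equal levels. edgeR and DESeq2 on the recovered reads also gave 0 of the 31 names at an unadjusted p under 0.05. In 0 of the let-7 names did all CR libraries lie above or all below the TB libraries, which held for 0.604% and 1.66% of all tested names. The median log2 fold change, CR over TB, was 0.08 over the 19 sets (11 of them above 0) and 0.05 over all tested names.

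The standard errors show how wide these comparisons were. The TB libraries averaged 4693 ± 1363 RPM (SD, n = 3) of hsa-let-7f-5p and the CR libraries 4411 ± 1120 RPM, which in limma is a log2 fold change of -0.07 ± 0.44 (standard error) with an adjusted p of 0.999. For hsa-let-7b-5p TB averaged 1298 ± 1778 RPM and CR 1237 ± 1778 RPM, and the log2 fold change was -0.26 with a standard error of 1.5 (adjusted p = 0.999 from limma, p = 0.5 in a two-sided exact permutation test on RPM). gga-let-7i had 2677 ± 2417 and 3194 ± 3246 RPM and a log2 fold change of 0.14 (standard error 0.94). gga-let-7g-5p had 1773 ± 1236 and 1939 ± 1418 RPM and a log2 fold change of 0.08 (standard error 0.75). gga-let-7k-5p had 227 ± 67.5 and 247 ± 34.9 RPM and a log2 fold change of 0.16 (standard error 0.53). The lowest log2 fold change among the abundant names was that of gga-let-7l-5p, at -0.62 with a standard error of 1.43. Each adjusted p was 0.999, and differences of the size of these standard errors could not be detected. With 1 library left out the log2 fold change of hsa-let-7b-5p was -1.58 when CR replicate 2 was omitted and 0.95 when TB replicate 1 was.

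**Figure D4:**
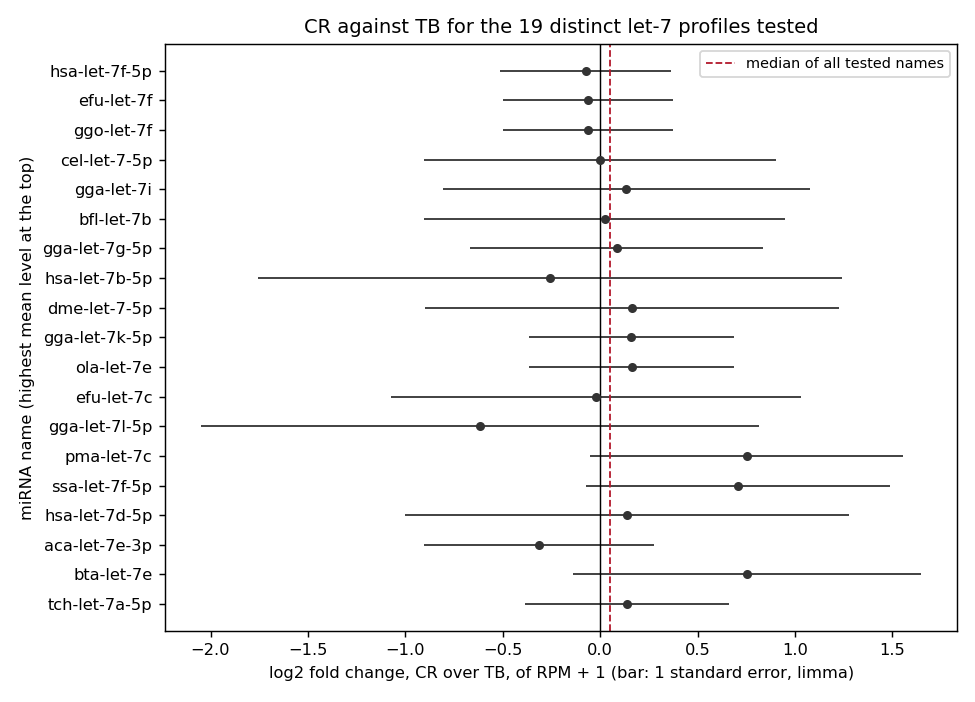
Log2 fold change of RPM + 1, CR over TB, for the 19 distinct let-7 sets of reads that were tested, with bars of 1 standard error from limma and a dashed line at the median of all tested names (0.05). The point of hsa-let-7b-5p is at -0.26 with a bar of 1.5 to each side, and that of hsa-let-7f-5p is at -0.07 with a bar of 0.44.

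The spread was smaller over the 4 libraries that remain once TB replicate 1 and CR replicate 2 are set aside. Those libraries were set aside because they stood apart in these same data. The smaller spread follows in part from that choice, and the p-values below rest on it. hsa-let-7b-5p had 289 and 255 RPM in TB replicates 2 and 3 and 228 and 193 RPM in CR replicates 1 and 3, so that both CR libraries were lower. gga-let-7l-5p had 46.4 and 54.2 RPM in the TB pair and 25.9 and 25.7 RPM in the CR pair. Both CR libraries lay below both TB libraries in 2 of the 19 let-7 sets, these being let-7b and let-7l. By names this was 3 of 31, against 25.4% of all tested names. In 0 sets did both CR libraries lie above, against 6.19% of all tested names. The log2 fold change of gga-let-7l-5p in limma on these 4 libraries was -0.93 (standard error 0.37, unadjusted p = 0.024, adjusted p = 0.975), and that of hsa-let-7b-5p was -0.37 (standard error 0.42, adjusted p = 0.997). let-7l was the only let-7 set with an unadjusted p under 0.05 there, a threshold that 3.63% of all tested names met.

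Among the 78 pairs of the 13 abundant names, the ratio of the levels kept the groups apart in 7, of which 6 were let-7f names against gga-let-7k-5p or ola-let-7e. The seventh pair was dme-let-7-5p and hsa-let-7c-5p, with ratios of 2.21, 2.21 and 2.29 across TB against 2.41, 2.74 and 2.46 across CR. Full separation of 3 from 3 libraries has a probability of 0.1 if the labels carry nothing, and the pairs share names. A count of 7 of 78 is not above that probability. The 6 pairs cross names that moved almost as one, so they are close to 1 comparison. The share over pairs of all tested names was not computed, so these 7 pairs are described only. The log2 ratio of gga-let-7k-5p to hsa-let-7f-5p was -4.38, -4.36 and -4.36 in TB replicates 1 to 3 and -4.28, -3.89 and -4.23 in CR replicates 1 to 3. The mean was -4.37 ± 0.012 (SD, n = 3) in TB and -4.13 ± 0.21 in CR, a difference of 0.24. Its p of 0.1 by two-sided exact permutation is the smallest value 3 against 3 libraries can give. Any ratio that keeps the groups apart has this p, so it adds nothing to the selection. Of the 12 ratios to hsa-let-7f-5p that were computed, only that of gga-let-7k-5p and that of ola-let-7e, which has nearly the same reads, kept the groups apart. By tested let-7 names this was 2 of 31, and by sets 2 of 19, with nearly the same reads in both. Over all tested names 0.906% had a ratio to hsa-let-7f-5p that was higher in every CR library than in every TB library. For 0.755% it was lower in every CR library, against 0 of the 31 let-7 names. Most tested names were higher in TB replicate 1 and CR replicate 2, unlike hsa-let-7f-5p. These shares are therefore no close measure for a name that follows it. CR replicate 2 carried the largest part of the difference of gga-let-7k-5p.

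The 3p strand, the passenger strand of most let-7 precursors, was scarce. The 29 names with a read that carry 3p or share the reads of such a name held 12 distinct sets of reads, with means of 0.0548 to 5.03 RPM. There were 646 reads of hsa-let-7b-5p for each read of hsa-let-7b-3p, 1618 reads of gga-let-7i for each read of mmu-let-7i-3p and 2188 reads of gga-let-7g-5p for each read of hsa-let-7g-3p. The 3p form of let-7a, let-7e and let-7f-1 (hsa-let-7a-3p, aca-let-7e-3p and aca-let-7f-1-3p, with the same reads) had 2.45, 6.64 and 4.99 RPM across TB against 5.79, 2.67 and 2.30 RPM across CR. Among the letters whose strands were compared (a, b, c, d, f, g, i and l), let-7d was the exception by the names taken here. Its 5p name hsa-let-7d-5p had 14.7, 1.28 and 1.44 RPM across TB against 2.63, 16.0 and 0.900 RPM across CR, from 172 reads. aca-let-7d-3p (anole lizard) had 7.71, 0 and 0.333 RPM across TB against 0.176, 22.0 and 0 RPM across CR, from 82 reads. Taking 3 reads as the most that a count of 0 allows, the limit is 0.321 RPM in TB replicate 2 and 0.300 RPM in CR replicate 3. Both strands of let-7d were highest in CR replicate 2 and TB replicate 1, and 2.10 reads of the 5p strand were counted for each read of aca-let-7d-3p over all libraries. The ratio varied between libraries, since aca-let-7d-3p made up 57.9% of these reads in CR replicate 2, 34.4% in TB replicate 1 and 0% in TB replicate 2 and CR replicate 3. The 5p name had only 12 and 9 reads in TB replicate 2 and CR replicate 3. The human name hsa-let-7d-3p had 4 reads in all, so the exception rests on taking the anole name for the 3p strand.

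The remaining members had few reads. Of the 50 names with a mean under 100 RPM, the highest mean was 9.19 RPM, so the family fell into an abundant and a scarce part with no name between 9.19 and 164 RPM. Among these 50, 11 were tested, from 59 to 289 reads in all. The other 39 had 0 to 82 reads over the 6 libraries, with a median of 23 reads. The 4 names at 0 in every library were cin-let-7d-5p, hsa-let-7a-2-3p, mmu-let-7a-2-3p and odi-let-7d. By the same 3 reads, and by counting error alone, a level of up to 0.263 RPM in CR replicate 1 and of up to 2.0 RPM in CR replicate 2 could give 0 reads.

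The names whose pattern over the 6 libraries was most like that of hsa-let-7b-5p were sought among 167 distinct sets of reads outside the family with a mean of at least 100 RPM. After bta-miR-3596, which differs from it by 3 reads in 1 library, these were 3 names of miR-30c (dre-miR-30c-5p, hsa-miR-30c-5p and oar-miR-30c, each with Pearson's r = 0.996 of log2(RPM + 1) over 6 libraries) and hsa-miR-92a-3p (r = 0.993). The lowest were mmu-miR-1b-5p (r = -0.991) and efu-miR-218b and rno-miR-218b (r = -0.988 each). All points share the division into TB replicate 1 and CR replicate 2 and the other 4 libraries. Over those 4 libraries alone r was 0.916 for hsa-miR-30c-5p, 0.756 for hsa-miR-92a-3p and -0.064 for mmu-miR-1b-5p. Within the family, r with hsa-let-7b-5p was 0.962 to 0.997 for let-7 without a letter, let-7i, let-7g, let-7c and let-7l, -0.879 for hsa-let-7f-5p and -0.734 for gga-let-7k-5p.

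let-7 genes of vertebrates often lie beside genes of the miR-99, miR-100 and miR-125 families and can be transcribed with them. Each of the 5 such miRNAs looked for had tested names, and 0 of them were past the test in limma in either direction. bfl-miR-125b had 1451, 100 and 64.5 RPM across TB against 128, 2336 and 50.7 RPM across CR. bta-miR-99a-5p had 1202, 229.7 and 119 RPM across TB against 350.4, 2061 and 140.0 RPM across CR. All 5 partners were higher in TB replicate 1 and CR replicate 2 than in each other library, as hsa-let-7b-5p and hsa-let-7c-5p were. This held for 57.3% of all tested names, so it was not particular to these miRNAs. After TMM scaling miR-99b and miR-100 were mixed. ola-miR-100 had 2185, 977 and 652 RPM across TB against 1250, 4137 and 597 RPM across CR. aca-miR-99b-5p and pte-miR-125a-5p were low, with 14.8 to 82.6 RPM and 0.50 to 129 RPM.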

How the data were processed

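Duodenal small RNA from 3 TB and 3 CR samples was made into TruSeq libraries and sequenced on an Illumina HiSeq. For each library the authors deposited RPM values of 1568 miRNA names. The column is headed tpm, while the methods of the study name FPKM. The values sum to 1000000 in each library and all of them (100.0%, within 0.01 of a read) are whole multiples of what 1 read is worth, so whole reads were recovered (1500905 to 11395209 for each library). A read counted under several names enters this sum each time. The aligner and miRNA reference are not given in the sources used here.

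Groups were compared with limma 3.58.1 (R 4.3.3, trended eBayes) on log2(RPM + 1), which understates changes of low names. Only the 662 names that reached 10 reads in 3 or more libraries were fitted. p-values were adjusted by the Benjamini-Hochberg method over all 662 names. edgeR 4.0.16 and DESeq2 1.42.0 on the recovered reads were alternatives, besides other scalings, pseudocounts, filters, a replicate block and omitted libraries. Omitted-library fits kept the same 662 names. Single values were compared with two-sided exact permutation tests over all 20 labellings. Scripts were tested on simulated data. The simulated libraries did not hold the division of TB replicate 1 and CR replicate 2 from the others, so they do not show what could be detected here. Figures used Python 3.11.15 and matplotlib 3.10.9.

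Values in each library are given for distinct sets of reads with a mean of at least 100 RPM, among them hsa-let-7b-5p. In their place efu-let-7f, ggo-let-7f and ola-let-7e are given relative to a close name. Cluster partners are given by library or, for aca-miR-99b-5p and pte-miR-125a-5p, as ranges. Neighbours in likeness are given by their correlation. The members and lists were chosen with earlier results of these data known, including the standing apart of TB replicate 1 and CR replicate 2. Intervals and limits from reads cover counting error only, since the files carry no molecular identifiers. The marker list of leukocytes held 3 names, of which miR-150 had no name with reads and miR-223 had 1 read in all.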

Additional observations from a re-analysis of the deposited data

How the results depend on the processing

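No let-7 name had an adjusted p under 0.05 in any alternative run. Among all tested names the number was 0 except for 5 with the library split (TB replicate 1 with CR replicate 2, against the rest) as a term. At an unadjusted p under 0.05 limma called 0 names, edgeR 5 with TMM and 1 with library size alone, and DESeq2 5. The number was 1 with a pseudocount of 10, 4 without a filter on low counts, 32 with the library split as a term and 24 without both TB replicate 1 and CR replicate 2, where it was 1 (gga-let-7l-5p) among the let-7 names. With one replicate left out all these numbers were 0. The cause was not tested.

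The sign of the log2 fold change was unstable for most let-7 names, none of which was called. With edgeR and library size alone it was 0.018 for cel-let-7-5p and 0.12 for hsa-let-7c-5p. With edgeR and TMM it was -0.10 for gga-let-7i, -0.23 for bfl-let-7b, -0.088 for gga-let-7g-5p and -0.070 for dme-let-7-5p. With DESeq2 it was -0.016 for gga-let-7i, -0.15 for bfl-let-7b and -0.029 for gga-let-7g-5p. With limma on TMM-scaled RPM, by which the median over the tested names went from 0.05 to -0.11, it was -0.053 for gga-let-7i, -0.17 for bfl-let-7b, -0.10 for gga-let-7g-5p and -0.025 each for dme-let-7-5p, gga-let-7k-5p and ola-let-7e. Without both TB replicate 1 and CR replicate 2 it was -0.0063 for bfl-let-7b, -0.020 for dme-let-7-5p and -0.046 each for gga-let-7k-5p and ola-let-7e.

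With one replicate left out the log2 fold change ran from -0.33 to 0.10 for hsa-let-7f-5p, -0.33 to 0.12 for efu-let-7f and ggo-let-7f, -0.72 to 0.71 for cel-let-7-5p, -0.67 to 0.83 for gga-let-7i, -0.73 to 0.74 for bfl-let-7b, -0.48 to 0.62 for gga-let-7g-5p, -1.58 to 0.95 for hsa-let-7b-5p, -0.77 to 0.92 for dme-let-7-5p, -0.10 to 0.34 for gga-let-7k-5p and ola-let-7e, -0.90 to 0.74 for hsa-let-7c-5p and -1.94 to 0.39 for gga-let-7l-5p. The log2 ratio of the summed level ran from -0.38 to 0.29. The difference of shares in percentage points ran from -5.87 to 5.74 for let-7b, -0.16 to 0.33 for let-7e, -16.8 to 13.1 for let-7f, -0.74 to 1.82 for let-7g, -2.58 to 4.34 for let-7i, -0.17 to 0.33 for let-7k and -3.85 to 4.66 for names without a letter. For let-7b it was 0.27 without both libraries and 0.039 with the highest name of each letter, and for names without a letter -0.32 with the highest name and -0.15 with the 8 names only, a choice added after the data were seen. Leaving out TB replicate 1 or CR replicate 2 alone changes their balance between the groups.

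The replicate block gave 0 let-7 names and 0 of all names under either threshold. The correlation of same-numbered libraries' deviations from their group means was -0.80, -0.91 and 0.91. It was 0.93 between TB replicate 1 and CR replicate 2, which stood apart. These correlations follow that division, so they cannot decide whether the numbers pair the libraries. The block left each log2 fold change at its value, such as -0.26 for hsa-let-7b-5p. The 1500905 reads of CR replicate 2 limit the scarce names, whereas hsa-let-7b-5p had 4938 reads there.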

Other observations

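A pair of scarce let-7 names had a high RPM value in CR replicate 2 without more reads there. ssa-let-7f-5p (salmon) had 6.31, 5.03 and 5.21 RPM across TB against 4.39, 27.3 and 6.80 RPM across CR, from 36, 47 and 47 reads and from 50, 41 and 68 reads. pma-let-7c (lamprey) had 5.61, 4.50 and 5.66 RPM across TB against 4.12, 28.6 and 6.60 RPM across CR, from 32, 42 and 51 reads and from 47, 43 and 66 reads. CR replicate 2 is the library with the fewest reads. After TMM scaling it was no longer the highest library for either name, at 9.22 for ssa-let-7f-5p against 12.8 in CR replicate 3 and at 9.67 for pma-let-7c against 12.4. TB replicate 1 was then the lowest, at 3.72 and 3.30. The log2 fold changes of RPM + 1, CR over TB, were 0.71 (standard error 0.78) and 0.75 (standard error 0.80).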
